A study of Mus musculus with 6 samples.

Results

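The 43 DNA replication and S-phase genes of the mouse colon were followed across 6 RNA-seq libraries from a study of colitis. They were taken as a list of gene symbols, from the origin-binding protein Orc1 to the cell cycle factor E2f2, matched through GENCODE M21 to the Ensembl identifiers of the expression table. All 43 were found among its 20533 genes, and all 43 passed the filter on low values. The libraries came from 3 groups of C57BL/6 mice, all male, wild type and 7 weeks old. The first group received 2% dextran sulphate sodium (DSS, a polymer that damages the lining of the colon) together with montmorillonite powder, an adsorbent clay. The second received 2% DSS alone and the third received water. Treatment lasted 7 days, after which RNA was taken from the distal colon with Trizol. The sources used here give neither the dose of montmorillonite nor the number of mice. Each group held 2 libraries, and since the labels do not say that they came from separate mice, p-values reflect only how far these libraries spread, which may be technical.

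A cell copies its genome once per division. In G1 the origin recognition complex, Cdc6 and Cdt1 load the ring-shaped Mcm helicase onto origins, a step called licensing. At the start of S phase Cdc45, the GINS complex and Mcm10 turn the loaded ring into a moving helicase, and polymerases, the sliding clamp Pcna and its loader copy the strands. Many of these genes are switched on at the G1/S boundary by E2F transcription factors. In the colon the dividing cells of the epithelium lie in the lower crypt, while lymphoid follicles and wound-edge or squamous epithelium also hold dividing cells. In RNA from whole tissue, fewer dividing cells and less RNA per dividing cell cannot be told apart.

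The table held normalised read counts, that is reads divided by 1 factor per library, and these are the values given throughout, with replicate 1 before replicate 2. The reads recovered from it summed to 6395768 and 4494666 in DSS plus montmorillonite, 21481594 and 15212981 in DSS, and 8936826 and 3741494 in water. A single read was worth 1.44 and 1.82 in DSS plus montmorillonite, 0.335 and 0.479 in DSS, and 0.960 and 2.27 in water, so low values were finest in DSS. All 13 general epithelial markers, Epcam and Krt8 among them, had reads in every library, as the colon label requires. Both treated groups were uneven, and in squamous markers so was water. The 7 stratified squamous markers summed to 111 and 7204 in DSS plus montmorillonite, 159 and 40031 in DSS and 20.2 and 441 in water. The neutrophil markers, 10 of 11 in the table, summed to 197 and 9379 in DSS plus montmorillonite, 3316 and 14318 in DSS and 55.7 and 88.7 in water. Replicate 1 and replicate 2 of DSS plus montmorillonite therefore stood apart, and so did the DSS replicates and the water replicates in squamous genes.

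E2F sites are a known feature of replication promoters, so the promoters of the members were read first. RefSeq promoter windows of 300 bases (GRCm38.p6, 250 bases before to 50 after a gene's start) were at hand for 36 of the 43 members. They were searched on both strands for 4 E2F words of 8 bases, TTTCCCGC, TTTGCCGC, TTTCGCGC and TTTGGCGC. At least 1 word stood in a window of 14 of 36 members (38.9%), against 1 of 25 mitosis genes (4%) and 548 of 13530 genes of the whole table (4.05%). The 14 were Cdc6, Cdt1, E2f2, Gins3, Lig1, Mcm3, Mcm5, Mcm6, Mcm7, Orc1, Pola1, Pold1, Rfc3 and Uhrf1. The following stretches show 6 of them, chosen with the values known to include members with large and with small differences between groups. Each is the 180 bases before the gene's start as the RefSeq promoter table places it, on the gene's own strand, 5′ to 3′, with the E2F words in capitals. The GENCODE M21 start lies upstream of the stretch for Cdc6 and within it for Gins3 and Orc1.
Mcm5 (chr8:75109329-75109508, plus strand): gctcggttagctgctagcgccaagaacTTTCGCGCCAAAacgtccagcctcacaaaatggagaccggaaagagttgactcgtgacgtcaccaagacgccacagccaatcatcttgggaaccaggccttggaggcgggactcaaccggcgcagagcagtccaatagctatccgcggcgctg
Mcm6 (chr1:128359706-128359885, minus strand): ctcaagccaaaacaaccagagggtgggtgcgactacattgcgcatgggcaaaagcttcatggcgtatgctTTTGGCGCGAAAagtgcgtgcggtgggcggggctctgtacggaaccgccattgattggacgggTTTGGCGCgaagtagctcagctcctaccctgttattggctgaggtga
Cdc6 (chr11:98907971-98908150, plus strand): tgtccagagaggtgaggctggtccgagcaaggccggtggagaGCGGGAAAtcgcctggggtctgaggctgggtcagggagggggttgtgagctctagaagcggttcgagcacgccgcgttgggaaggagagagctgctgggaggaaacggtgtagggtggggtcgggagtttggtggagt
Gins3 (chr8:95633379-95633558, plus strand): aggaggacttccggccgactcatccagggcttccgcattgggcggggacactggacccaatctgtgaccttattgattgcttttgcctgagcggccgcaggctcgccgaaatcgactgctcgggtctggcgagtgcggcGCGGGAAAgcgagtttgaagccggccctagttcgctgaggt
Pola1 (chrX:93632156-93632335, minus strand): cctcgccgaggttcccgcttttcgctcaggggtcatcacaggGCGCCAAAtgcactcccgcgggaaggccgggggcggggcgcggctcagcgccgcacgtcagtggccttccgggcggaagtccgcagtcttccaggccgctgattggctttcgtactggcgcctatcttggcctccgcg
Orc1 (chr4:108579274-108579453, plus strand): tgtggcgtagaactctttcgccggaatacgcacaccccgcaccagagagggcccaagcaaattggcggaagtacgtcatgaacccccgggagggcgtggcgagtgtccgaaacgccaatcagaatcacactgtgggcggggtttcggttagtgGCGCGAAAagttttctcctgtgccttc

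In Mcm5 and in the upstream site of Mcm6 a pair of E2F words on opposite strands overlap and read as 1 run of capitals, and Mcm6 carries a further word closer to its start. The stretches of Cdc6, Gins3, Pola1 and Orc1 each hold a single word. A CCAAT box (CCAAT, either strand) was in a window of 22 members (61.1%), 18 mitosis genes (72%) and 5639 genes of the table (41.7%). The CHR words TTTGAA and TTCGAA, taken from an element known in promoters of late cell cycle genes, were in windows of 7 members (19.4%), 19 mitosis genes (76%) and 2341 genes of the table (17.3%). In DSS plus montmorillonite against water the median log2 fold change was -1.15 for the 14 members with a word, of which 12 were negative, and -1.23 for the 22 without one, of which 22 were negative. A match is a description of the letters in a window and does not show that a factor binds there.

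**Figure D1:**
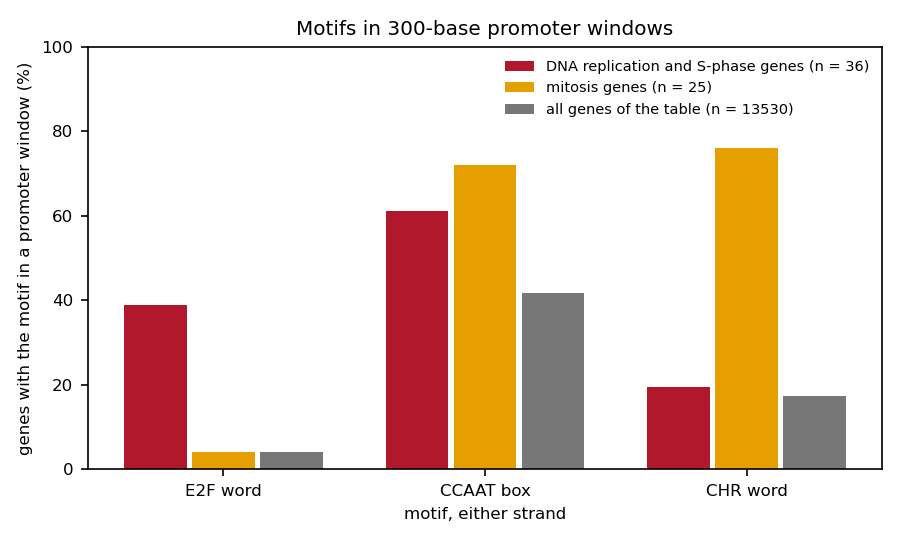
Share of genes (vertical axis, %) with an E2F word, a CCAAT box or a CHR word in a RefSeq promoter window, for the DNA replication and S-phase genes, the mitosis genes and all genes of the table, which include both lists. E2F words stand at 38.9% in the replication genes and 4% in the mitosis genes, while CHR words stand at 19.4% and 76%.

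Relative to water, replication genes were lower across all their roles in colons given DSS plus montmorillonite. The log2 fold change was negative for 41 of 43 members, against 46.2% of all 20307 genes tested, and positive for 2, Orc1 and E2f2, against 53.6%. In 32 members both DSS plus montmorillonite libraries lay below both water libraries, and in none did both lie above; 19.2% of all genes were lower without overlap. The median log2 fold change of the members was -1.22, against 0.06 over all genes, and the range ran from -2.72 for Fen1 to 0.31 for E2f2. No member passed an adjusted p of 0.05 in the limma fit of all 6 libraries (0 of all genes, 0%; smallest adjusted p over the members 0.294), while at an unadjusted p below 0.05 24 members were lower, against 4.77% of all genes, and 0 higher, against 5.37%. DESeq2, run on the recovered reads, called 12 members lower, against 1.29% of the genes it tested, and 0 higher, against 0.989%, and edgeR called 0, with 22 lower at an unadjusted p below 0.05, against 800 of all 20307 genes. The 12 were Mcm5, Gins1, Gins2, Pola1, Prim1, Rfc4, Rfc5, Lig1, Uhrf1, Rrm1, Tyms and Tk1.

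The group's replicates differed in how low they were. The median member stood -1.50 (log2, relative to the water mean) in replicate 1 and -0.70 in replicate 2 of DSS plus montmorillonite. It was 0.16 and -0.11 under DSS and -0.28 and 0.28 under water. Replicate 1 of DSS plus montmorillonite was the lowest of the 6 libraries for 37 of 43 members and replicate 2 for 5. The highest value of a member was in water replicate 2 for 19 members and in DSS replicate 1 for 15. Without DSS plus montmorillonite replicate 1 the median log2 fold change against water was -0.70, and without replicate 2 it was -1.50.

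**Figure D2:**
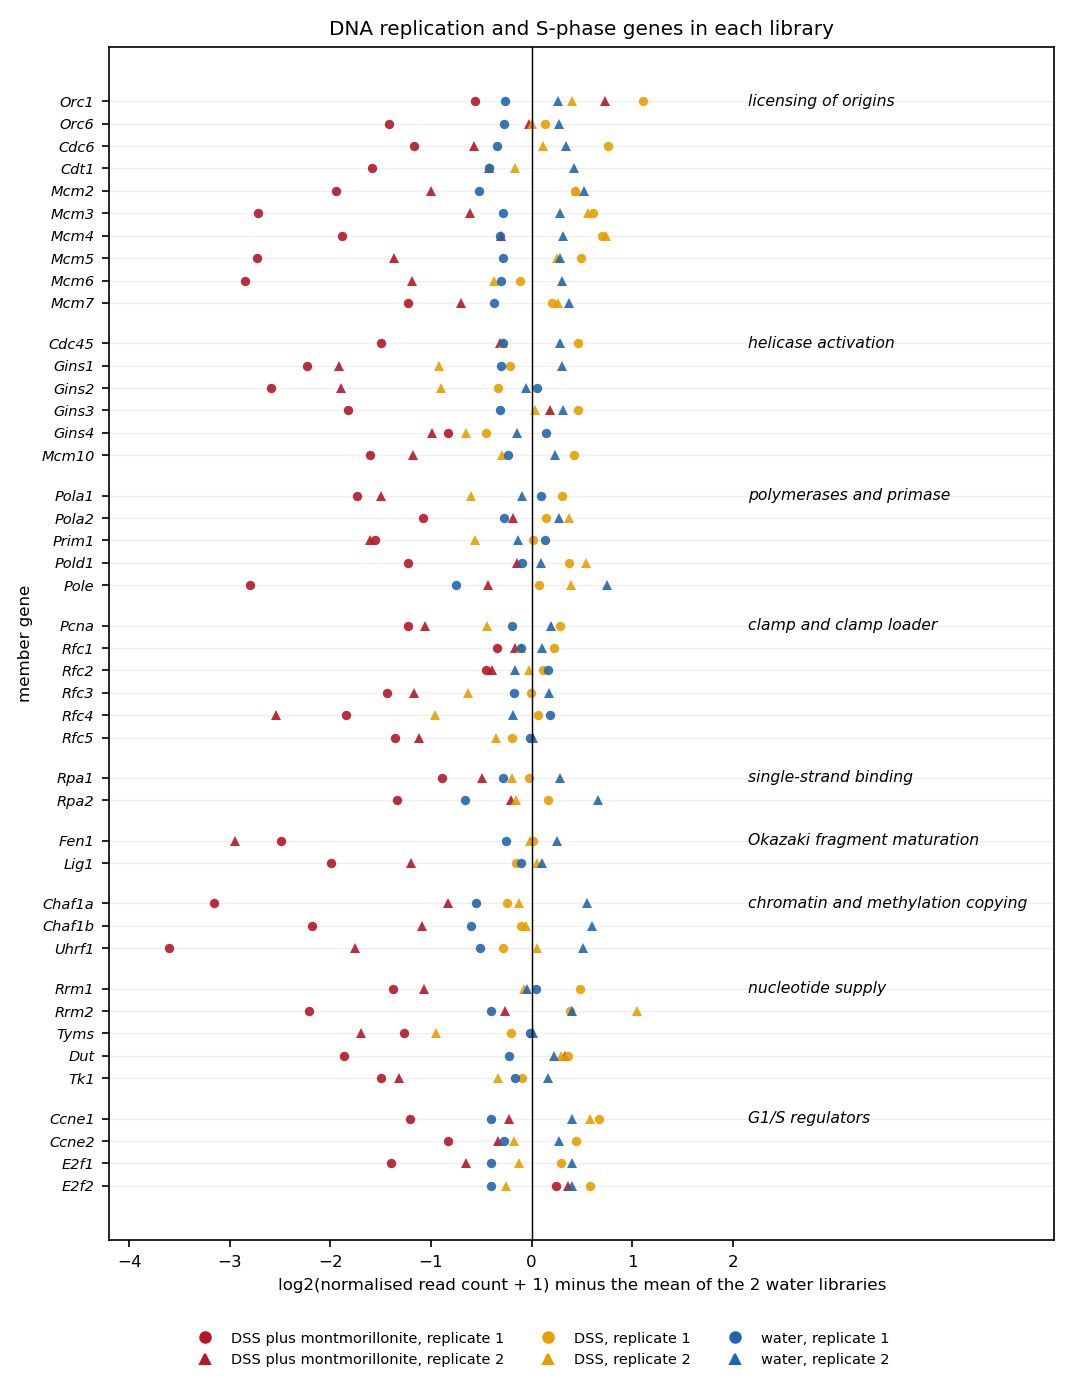
Each row is 1 of the 43 members, grouped by role, and each point 1 library, placed by log2(normalised read count + 1) minus the mean of the 2 water libraries (red, DSS plus montmorillonite; orange, DSS; blue, water; circles, replicate 1; triangles, replicate 2). Red points lie left of both blue points in 32 rows, and red circles lie furthest left in 37 rows.

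In colons given DSS alone the replication genes were centred near the water level. Against water, 25 of 43 members had a positive log2 fold change, against 55.1% of all genes, and 18 a negative one, against 44.9%, with a median of 0.06 (0.10 over all genes) and a range from -0.61 for Gins2 to 0.76 for Orc1. In 6 members both DSS libraries lay above both water libraries, against 33.9% of all genes, and in 4 both lay below, against 28.5%. No member passed in limma (0% of all genes in the fit of 6 libraries), edgeR or DESeq2, and none had an unadjusted p below 0.05 in any of these tools. At that p limma had 10.5% of all genes lower and 12.5% higher. EdgeR had 4540 of 20307 genes and DESeq2 4759 of 20533 below it, in either direction. DESeq2 called 7.8% of its genes higher and 6.75% lower in this comparison. The fit of the 4 libraries alone called 7.9% of all genes higher and 7.18% lower, and no member. A p above the threshold does not show that these values were equal: the standard errors of the members' log2 fold changes ran from 0.23 to 0.85.

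Set against DSS alone, colons given DSS plus montmorillonite again had lower replication genes. The log2 fold change was negative for 42 of 43 members, against 54.3% of all genes, and the groups did not overlap in 39 members, all lower, against 20.6% of all genes. The median was -1.19, against -0.07 over all genes. No member passed in limma (0% of all genes) or edgeR, while 26 members were lower at an unadjusted p below 0.05 in each of these tools. In limma 4.89% of all genes were lower at that p and 6.39% higher, and in edgeR 957 of 20307 genes were lower. DESeq2 called no member higher, against 3.34% of its genes, and 11 lower, against 1.18%. They were Mcm2, Mcm5, Gins2, Mcm10, Pola1, Prim1, Rfc5, Lig1, Uhrf1, Rrm1 and Tk1. Both comparisons use the same DSS plus montmorillonite libraries, so their results are not independent. Without replicate 2 of that group limma called 16 members lower, among 1028 genes called lower in all, and without replicate 1 it called none, with 20 lower at an unadjusted p below 0.05. Each of these fits leaves the group with a single library, which is assumed to vary like the libraries of the other groups, and the 16 calls rest on replicate 1, the lower of the pair.

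The licensing genes, 10 members, had a median log2 fold change of -1.05 in DSS plus montmorillonite against water, of 0.41 in DSS against water, and of -1.54 in DSS plus montmorillonite against DSS. All 6 subunits of the Mcm2 to Mcm7 helicase ring are among them. Mcm5 (ENSMUSG00000005410.6, GRCm38 chromosome 8, 75109569 to 75128439) had normalised read counts of 38.8 and 102 in DSS plus montmorillonite, 373 and 315 in DSS and 217 and 321 in water. It averaged 70.3 ± 44.5 in DSS plus montmorillonite, 344 ± 40.7 in DSS and 269 ± 73.4 in water (SD, n = 2 each). Both values of DSS plus montmorillonite were below all 4 others, while the DSS and water values overlapped. Its log2 fold change, given here and for other genes with the standard error of the limma fit, was -2.05 ± 0.48 against water (limma adjusted p = 0.388, DESeq2 adjusted p = 0.0202) and -2.42 ± 0.48 against DSS (limma adjusted p = 0.279, DESeq2 adjusted p = 0.00174).

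The other ring subunits also had their lowest mean in DSS plus montmorillonite. Mcm2 had 56.1 and 109 in DSS plus montmorillonite, 296 and 296 in DSS and 152 and 314 in water, and Mcm3 had 40.3 and 176, 414 and 399 and 222 and 329.8 in those groups. For both genes the DSS plus montmorillonite values lay below all the others. Mcm4, the ring member with the smallest p in DSS against water, had 64.7 and 196 in DSS plus montmorillonite, 395 and 404 in DSS and 195 and 300.2 in water. Here the DSS libraries were above all the others, and replicate 2 of DSS plus montmorillonite reached just above the lower water library; the log2 fold change of DSS against water was 0.72 ± 0.52 (limma adjusted p = 0.440). Mcm6 had 82 and 262 in DSS plus montmorillonite, 552 and 461 in DSS and 486 and 737 in water. Mcm7 had 179.8 and 259.8, 485 and 506 and 326 and 546 in the same groups, and for both genes the DSS plus montmorillonite libraries were lowest. Exons of Mcm7 overlap those of Ap4m1 by 247 bases on the opposite strand, and the sources used here do not say whether counting used strand.

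The loading factors were less regular. Cdt1 had 60.4 and 136 in DSS plus montmorillonite, 137 and 163 in DSS and 136 and 246 in water. Cdc6 had 20.1 and 30.9 in DSS plus montmorillonite, 79.4 and 50.3 in DSS and 36.5 and 59.1 in water. In both, DSS plus montmorillonite lay below the other groups, for Cdt1 by less than 1 normalised count relative to the lower water library. Orc6, a subunit of the origin recognition complex, had 54.7 and 145 in DSS plus montmorillonite, 162 and 148 in DSS and 122 and 179.7 in water, overlapping with water. Orc1, the largest subunit of that complex, had 20.1 and 50.9 in DSS plus montmorillonite, 66.3 and 40.3 in DSS and 25 and 36.4 in water. It had the largest p of the licensing genes against water (log2 fold change 0.09 ± 0.59, limma adjusted p = 0.968), its direction turned to -0.56 without DSS plus montmorillonite replicate 2 and to -0.18 without water replicate 1, and both DSS libraries were above both water libraries.

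**Figure D3:**
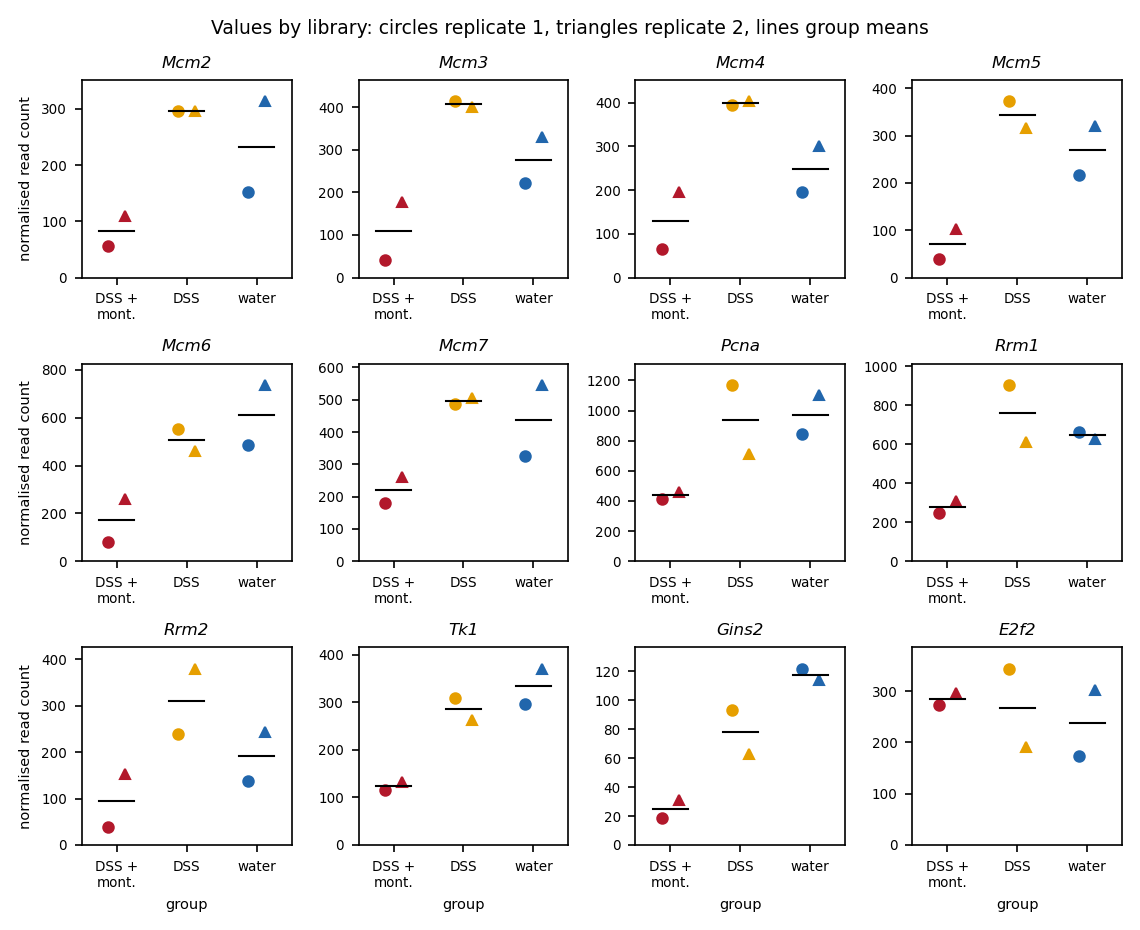
Normalised read counts (vertical axes, from 0) of 12 members in DSS plus montmorillonite, DSS and water, with 1 point per library and a line at each group mean. The 6 Mcm genes are lowest in DSS plus montmorillonite on average, Rrm1 and Tk1 show closely spaced DSS plus montmorillonite libraries, and E2f2 overlaps in all 3 groups.

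The 6 genes that activate the helicase had a median log2 fold change of -1.15 in DSS plus montmorillonite against water, -0.24 in DSS against water and -1.27 in DSS plus montmorillonite against DSS. Gins2 (ENSMUSG00000031821.11, GRCm38 chromosome 8, 120578633 to 120589304), a subunit of the GINS complex, had 18.7 and 30.9 in DSS plus montmorillonite, 93.5 and 62.8 in DSS and 122 and 114 in water. The 3 groups did not overlap, with the DSS plus montmorillonite libraries lowest and water highest. Its log2 fold change was -2.24 ± 0.42 against water (limma adjusted p = 0.30, DESeq2 adjusted p = 0.00246) and -1.63 ± 0.42 against DSS (limma adjusted p = 0.310, DESeq2 adjusted p = 0.0340). Exons of Gins2 overlap 2758 bases of Gse1 on the opposite strand. Gse1 itself had 483 and 234 in DSS plus montmorillonite, 249 and 169.7 in DSS and 384 and 378 in water, so its order of groups was different.

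Gins1 had 14.4 and 18.2 in DSS plus montmorillonite, 61.3 and 37.4 in DSS and 57.6 and 88.7 in water, and its DSS plus montmorillonite values rest on 10 reads in each library. Gins4 had 115 and 104 in DSS plus montmorillonite, 150.1 and 131 in DSS and 227 and 186 in water. These GINS subunits were lowest in DSS plus montmorillonite, and Gins4, like Gins2, kept the DSS libraries below the water libraries (log2 fold change -0.55 ± 0.27 for DSS against water, limma adjusted p = 0.279). Gins3 behaved differently, with 10.1 and 43.6 in DSS plus montmorillonite, 53.3 and 39.3 in DSS and 30.7 and 47.8 in water. Replicate 1 of DSS plus montmorillonite was the lowest of the 6 libraries and replicate 2 lay within the range of the other groups, and its log2 fold change against water, -0.82 ± 0.73, turned to 0.18 without replicate 1 of that group. Mcm10, which binds the activated helicase, had 37.4 and 50.9 in DSS plus montmorillonite, 156 and 94.9 in DSS and 98.9 and 136 in water. Cdc45, the helicase cofactor, had 25.9 and 60.0 in DSS plus montmorillonite, 103 and 61.4 in DSS and 61.4 and 91 in water. Neither gene overlapped between the DSS plus montmorillonite libraries and the other groups, although Cdc45 replicate 2 lay within 2 units of the lowest library of DSS and of water.

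Polymerase and primase subunits, 5 members, had a median log2 fold change of -1.58 in DSS plus montmorillonite against water, 0.24 in DSS against water and -1.31 in DSS plus montmorillonite against DSS. Prim1 (ENSMUSG00000025395.14, GRCm38 chromosome 10, 128015168 to 128030037), the catalytic subunit of primase, which lays the RNA primers, had 54.7 and 52.7 in DSS plus montmorillonite, 164 and 109.8 in DSS and 179 and 148 in water. It averaged 53.7 ± 1.39 in DSS plus montmorillonite, 137 ± 38.2 in DSS and 163 ± 21.7 in water (SD, n = 2 each). Its log2 fold change was -1.58 ± 0.33 against water (limma adjusted p = 0.343, DESeq2 adjusted p = 0.0153) and -1.31 ± 0.33 against DSS (limma adjusted p = 0.302, DESeq2 adjusted p = 0.0373).

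Primase works in a complex with DNA polymerase alpha. Pola1, the catalytic subunit of that polymerase, had 44.6 and 52.7 in DSS plus montmorillonite, 186 and 98.8 in DSS and 160.3 and 141 in water. Like Prim1 it was lowest in both DSS plus montmorillonite libraries, with closely spaced replicates. Pola2, the regulatory subunit of the same polymerase, had 69 and 129 in DSS plus montmorillonite, 162 and 191 in DSS and 122 and 177 in water and overlapped with water (log2 fold change -0.63 ± 0.39, limma adjusted p = 0.591). Pold1, the catalytic subunit of lagging-strand polymerase delta, had 71.9 and 154 in DSS plus montmorillonite, 221 and 248 in DSS and 159 and 182 in water, with DSS above both other groups. Pole, the catalytic subunit of leading-strand polymerase epsilon, had 11.5 and 63.6 in DSS plus montmorillonite, 91.1 and 114 in DSS and 50.9 and 146 in water. Its DSS plus montmorillonite values overlapped with those of water and lay below both DSS values.

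The clamp and its loader, 6 members, were lower in DSS plus montmorillonite than in water without overlap in 6 of 6 members (19.2% of all genes), and lower than in DSS without overlap in 6 of 6 (20.6%). Their median log2 fold change was -1.19 against water and -0.98 against DSS, and that of DSS against water was -0.18. Pcna (ENSMUSG00000027342.14, GRCm38 chromosome 2, 132249162 to 132253314), the ring that tethers polymerases to DNA, had 411 and 461 in DSS plus montmorillonite, 1170.2 and 709 in DSS and 843 and 1103 in water. Its log2 fold change was -1.14 ± 0.29 against water (limma adjusted p = 0.401, DESeq2 adjusted p = 0.0697). Per kilobase of exon, Pcna was the most abundant of the 43 members in water, with a normalised count per kilobase of 182, 391 and 405 in DSS plus montmorillonite, DSS and water. GENCODE lists the pseudogenes Pcna-ps1 and Pcna-ps2, which are not rows of the table, and how reads shared with them were counted is not given in the sources used here.

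Loader subunits differed in size of effect. Rfc5, whose p was the smallest of the clamp and loader genes, had 89.2 and 105 in DSS plus montmorillonite, 201 and 179.8 in DSS and 228 and 232 in water. The 3 groups were separate, and the log2 fold change was -1.24 ± 0.26 against water (limma adjusted p = 0.342, DESeq2 adjusted p = 0.0108). Rfc4 had 30.2 and 18.2 in DSS plus montmorillonite, 116 and 56.6 in DSS and 126 and 97.8 in water, a log2 fold change of -2.19 ± 0.50 against water (DESeq2 adjusted p = 0.0217). Rfc3 had 60.4 and 72.7 in DSS plus montmorillonite, 164 and 106 in DSS and 146 and 186 in water. At the other end stood the large subunit Rfc1, with 303 and 343 in DSS plus montmorillonite, 450.2 and 358 in DSS and 358 and 414 in water, and a log2 fold change of -0.25 ± 0.23 against water (limma adjusted p = 0.693). Rfc2 had 232 and 242 in DSS plus montmorillonite, 345 and 312 in DSS and 356 and 284 in water. Rfc5 shares 499 exonic bases with Wsb2 and Rfc2 shares 952 with Lat2, in each case on opposite strands.

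Replication protein A coats the unwound single strands. Rpa1, its large subunit, had 252 and 332 in DSS plus montmorillonite, 460.0 and 408 in DSS and 384 and 569 in water. Rpa2 had 51.8 and 114 in DSS plus montmorillonite, 148 and 118 in DSS and 83.5 and 209 in water. Rpa1 was lowest in the DSS plus montmorillonite libraries (log2 fold change -0.69 ± 0.28 against water, limma adjusted p = 0.492), and Rpa2 overlapped with water. Of the genes that finish lagging-strand fragments, DNA ligase 1, Lig1 (ENSMUSG00000056394.17, GRCm38 chromosome 7, 13277283 to 13311433), had 70.5 and 124 in DSS plus montmorillonite, 256 and 295 in DSS and 265 and 305 in water. Both DSS plus montmorillonite libraries were far below the other 4, which overlapped. The log2 fold change was -1.60 ± 0.33 against water (limma adjusted p = 0.342, DESeq2 adjusted p = 0.00936) and -1.55 ± 0.33 against DSS (limma adjusted p = 0.279, DESeq2 adjusted p = 0.00800).

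Fen1, the flap endonuclease that trims those fragments, was the least abundant member per kilobase in each group and had the most negative fitted log2 fold change. Its values were 2.88 and 1.82 in DSS plus montmorillonite, 21.1 and 20.6 in DSS and 17.3 and 25 in water. The DSS plus montmorillonite values stand for 2 and 1 reads, so the ratio of pooled reads is the safer figure. DSS plus montmorillonite over water gave 0.123, with an exact 95% interval of 0.0240 to 0.397, and DSS plus montmorillonite over DSS gave 0.115, with an interval of 0.0234 to 0.346, which cover counting error only. Exons of Fen1 overlap Gm10143 by 1909 bases on the opposite strand.

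Genes that rebuild chromatin and copy DNA methylation behind the fork, 3 members, had a median log2 fold change of -1.99 in DSS plus montmorillonite against water, -0.11 in DSS against water and -1.80 in DSS plus montmorillonite against DSS. Uhrf1 (ENSMUSG00000001228.14, GRCm38 chromosome 17, 56303321 to 56323486) recognises hemimethylated DNA and recruits the maintenance methyltransferase. It had 25.9 and 96.3 in DSS plus montmorillonite, 269 and 341 in DSS and 229 and 466 in water. The DSS plus montmorillonite replicates differed widely from each other, yet both were below the other 4 libraries; the log2 fold change was -2.68 ± 0.64 against water (limma adjusted p = 0.393, DESeq2 adjusted p = 0.0153) and -2.57 ± 0.64 against DSS (limma adjusted p = 0.302, DESeq2 adjusted p = 0.0212). Chaf1a, the large subunit of the histone chaperone CAF-1, had 10.1 and 54.5 in DSS plus montmorillonite, 82.1 and 89.2 in DSS and 66.2 and 143 in water. Chaf1b, its middle subunit, had 21.6 and 47.2 in DSS plus montmorillonite, 94.5 and 97.3 in DSS and 66.2 and 155 in water. For these genes too replicate 1 was the lowest library and replicate 2 the next. Chaf1a shares 2542 exonic bases with Ubxn6 on the opposite strand.

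Nucleotide supply, 5 members, had a median log2 fold change of -1.24 in DSS plus montmorillonite against water, 0.20 in DSS against water and -1.19 in DSS plus montmorillonite against DSS. Tk1 (ENSMUSG00000025574.13, GRCm38 chromosome 11, 117815526 to 117826092), the thymidine kinase of S phase, had 117 and 133 in DSS plus montmorillonite, 309.9 and 263 in DSS and 297 and 371 in water. It averaged 125 ± 11.4 in DSS plus montmorillonite, 286 ± 33.4 in DSS and 334 ± 52.4 in water (SD, n = 2 each). The log2 fold change was -1.41 ± 0.25 against water, with the smallest p of the 43 members in that comparison (unadjusted 0.00109, limma adjusted p = 0.294, DESeq2 adjusted p = 0.00227), and -1.19 ± 0.25 against DSS (limma adjusted p = 0.279, DESeq2 adjusted p = 0.00989).

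Ribonucleotide reductase turns ribonucleotides into deoxyribonucleotides. Rrm1, its large subunit, had 249 and 307 in DSS plus montmorillonite, 905 and 613 in DSS and 665 and 628 in water, with a log2 fold change of -1.43 ± 0.26 against DSS (DESeq2 adjusted p = 0.00177). Rrm2, its S-phase small subunit, had 38.8 and 153 in DSS plus montmorillonite, 239.5 and 379.7 in DSS and 138 and 243 in water. Rrm1 was lowest in both DSS plus montmorillonite libraries, while Rrm2 overlapped with water and had its highest value in DSS replicate 2. Thymidylate synthase, Tyms, had 132 and 98.1 in DSS plus montmorillonite, 278 and 165 in DSS and 316 and 323 in water, so that the 3 groups were separate; DSS against water gave a log2 fold change of -0.57 ± 0.33 (limma adjusted p = 0.342). Dut, which removes dUTP, had 53.2 and 247 in DSS plus montmorillonite, 252 and 241 in DSS and 167 and 229.7 in water. Replicate 2 of the DSS plus montmorillonite colons was among the highest libraries for Dut and replicate 1 the lowest, and its log2 fold change against water, -0.76 ± 0.66, turned to 0.33 without replicate 1.

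The 4 regulators of the G1/S boundary had a median log2 fold change of -0.65 in DSS plus montmorillonite against water, 0.15 in DSS against water and -0.91 in DSS plus montmorillonite against DSS. E2f1, an activating E2F factor, had 20.1 and 34.5 in DSS plus montmorillonite, 67.3 and 50.3 in DSS and 41.3 and 72.8 in water. Cyclin E1, Ccne1, had 21.6 and 43.6 in DSS plus montmorillonite, 82.4 and 77.2 in DSS and 38.4 and 68.2 in water. Cyclin E2, Ccne2, had 46 and 65.4 in DSS plus montmorillonite, 113 and 73.3 in DSS and 68.1 and 100.1 in water. The DSS plus montmorillonite libraries were below both other groups for E2f1 and Ccne2, and for Ccne1 below DSS only, where DSS was above water. Ccne2 shares 474 exonic bases with Ints8 on the opposite strand. E2f2 (ENSMUSG00000018983.9, GRCm38 chromosome 4, 136172394 to 136196057), another activating E2F factor, stood apart from the other members, with 272 and 296 in DSS plus montmorillonite, 344 and 192 in DSS and 174 and 302 in water. All 3 groups overlapped, and its log2 fold change was 0.31 ± 0.39 against water (limma adjusted p = 0.770) and 0.14 ± 0.39 against DSS (limma adjusted p = 0.911), with the sign turning to -0.09 against water without water replicate 1, and against DSS to -0.11 under library-size scaling, -1.13 under scaling by epithelial genes and -0.28 without DSS replicate 2.

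A further 75 genes of replication and G1/S control give the surroundings of these members. In DSS plus montmorillonite against water 60 of 75 had a negative log2 fold change, against 46.2% of all genes, with a median of -0.59. At an unadjusted p below 0.05 in limma 26 were lower, against 4.77% of all genes, and none higher, against 5.37%. Limma called none (0% of all genes), and DESeq2 called 10 lower, against 1.29% of the genes it tested. In DSS against water the median was 0.09, and limma in the fit of 6 libraries called 0 (0% of all genes). At an unadjusted p below 0.05 in that fit 7 of 75 were lower and 3 higher, against 10.5% and 12.5% of all genes. DESeq2 called 2 lower, against 6.75% of the genes it tested. Among 12 further origin and polymerase subunits, Pold2 had the smallest p, with 93.5 and 67.2 in DSS plus montmorillonite, 159 and 171 in DSS and 204 and 239 in water (log2 fold change -1.47 ± 0.29 against water, DESeq2 adjusted p = 0.00654). The 2 with the largest p were Orc4 and Pold3. Orc4 had 263 and 276 in DSS plus montmorillonite, 339 and 278 in DSS and 310.0 and 229.7 in water, and Pold3, an accessory subunit of polymerase delta, had 375 and 389, 466 and 378 and 367 and 382 in those groups. Their log2 fold changes against water were 0.01 ± 0.26 and 0.03 ± 0.22 (limma adjusted p = 0.990 and 0.970).

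Of 8 further chromatin genes, 5 were lower in DSS plus montmorillonite than in water at an unadjusted p below 0.05 in limma, against 4.77% of all genes. The median log2 fold change was -1.10 and the range ran from -3.04 to -0.40, the ends being a pair of related chaperones. Asf1b, a histone chaperone of dividing cells, had 23 and 10.9 in DSS plus montmorillonite, 139 and 91.6 in DSS and 112 and 171 in water (log2 fold change -3.04 ± 0.50 against water, DESeq2 adjusted p = 1.29e-04). Its relative Asf1a, which is not tied to division, had 79.1 and 104 in DSS plus montmorillonite, 104 and 79.6 in DSS and 114 and 125 in water. The first was separate from both other groups and the second was separate from water only. The maintenance methyltransferase Dnmt1 had 226 and 376 in DSS plus montmorillonite, 418 and 694 in DSS and 339 and 484 in water, overlapping with water (log2 fold change -0.47 ± 0.38, limma adjusted p = 0.653). Among nucleotide genes Dtymk, thymidylate kinase, had 124 and 149 in DSS plus montmorillonite, 347 and 278 in DSS and 346 and 384 in water (log2 fold change -1.42 ± 0.25 against water, DESeq2 adjusted p = 0.00163). Rrm2b, the reductase subunit used outside S phase, had 90.6 and 153 in DSS plus montmorillonite, 153 and 116 in DSS and 120.0 and 75 in water, a log2 fold change of 0.31 ± 0.40 against water (limma adjusted p = 0.781).

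In DSS plus montmorillonite against water 16 of 21 further G1/S control genes were negative and 5 positive (median -0.52). Of 7 inhibitors of cyclin-dependent kinases 5 were negative and 2 positive (median -0.26), where 46.2% of all genes were negative. Cdk6 had 214 and 260 in DSS plus montmorillonite, 220 and 455 in DSS and 228 and 262 in water (log2 fold change -0.05 ± 0.37 against water). Ccna2, E2f7, Ccnd2, Cdkn1a and Cdkn2c, shown next, were among the negative ones. In DSS plus montmorillonite against DSS the log2 fold changes of Ccnd2 and Cdkn1a were positive. Ccna2, cyclin A2 of S phase and G2, had 175 and 207 in DSS plus montmorillonite, 822 and 404 in DSS and 994 and 839 in water (log2 fold change -2.25 ± 0.36 against water, DESeq2 adjusted p = 1.22e-04). E2f7, an inhibitory E2F factor, had 2.88 and 10.9 in DSS plus montmorillonite, 45.6 and 79.6 in DSS and 33.6 and 40.9 in water, and was called lower than in DSS by DESeq2 (adjusted p = 0.00537). Ccnd2, cyclin D2 of G1, had 2245 and 868 in DSS plus montmorillonite, 1505 and 1099.7 in DSS and 3011 and 3511 in water, so both treated groups lay below water. Cdkn1a, which encodes the kinase inhibitor p21, had 1703 and 1973 in DSS plus montmorillonite, 883 and 864 in DSS and 2664 and 2734 in water. The 3 groups were separate, with DSS lowest; DESeq2 gave a log2 fold change of -1.63 for DSS against water (adjusted p = 1.69e-10) and 1.07 for DSS plus montmorillonite against DSS (adjusted p = 2.36e-04), and the limma fit of 6 libraries called neither, while the limma fit of the 4 libraries of DSS and water called the difference between DSS and water (adjusted p = 0.00607). Cdkn2c, encoding the inhibitor p18, had 64.7 and 70.9 in DSS plus montmorillonite, 145 and 114 in DSS and 203 and 179.7 in water (log2 fold change -1.48 ± 0.29 against water, DESeq2 adjusted p = 0.00654).

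Mitosis genes, 30 in all, stand for the later part of the cycle. In DSS plus montmorillonite against water 30 of 30 were lower without overlap, against 19.2% of all genes. All 30 were lower at an unadjusted p below 0.05 in limma, against 4.77%. The median log2 fold change was -2.02, with a range from -2.53 to -0.73. Limma called none (0% of all genes), and DESeq2 called 27 lower, against 1.29% of the genes it tested. The per-library medians were -2.04 and -1.87 in DSS plus montmorillonite, -0.14 and -0.57 in DSS, and 0.08 and -0.08 in water. The mitosis genes were thus nearly as low in replicate 2 of DSS plus montmorillonite as in replicate 1, whereas the replication genes stood at -0.70 and -1.50. The distance of the replication median above the mitosis median was 0.54 and 1.17 in DSS plus montmorillonite, 0.31 and 0.46 in DSS, and -0.36 and 0.36 in water. In DSS against water the mitosis median was -0.37, where the replication median was 0.06. Of the 30 mitosis genes 27 were negative, against 44.9% of all genes, and 14 were lower without overlap, against 28.5%. At an unadjusted p below 0.05 in limma 3 of 30 were lower, close to the share of all genes, 10.5%. Whether the lists differ was not tested, since genes of a list share their libraries. Ube2c, a ubiquitin enzyme of mitotic exit, had 89.2 and 111 in DSS plus montmorillonite, 369.5 and 307 in DSS and 610.5 and 500.3 in water (log2 fold change -2.46 ± 0.25 against water, DESeq2 adjusted p = 3.57e-10).

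Markers of the cells that could carry S-phase RNA also moved with the groups, and their part in the results was not tested. General epithelial markers, 13 of 13 detected in each library, summed to 182314 and 96643 in DSS plus montmorillonite, 72938 and 48344 in DSS and 166537 and 174155 in water. Without overlap, 13 of 13 were lower in DSS than in water, against 28.5% of all genes. In DSS plus montmorillonite 2 of 13 were, against 19.2% of all genes. Crypt stem and transit markers, 10 listed, summed to 1929 and 1201, 1611 and 1529 and 2747 and 2956 in DSS plus montmorillonite, DSS and water. The stem cell receptor Lgr5 was at 0 and 1.82 in DSS plus montmorillonite, 4.02 and 2.88 in DSS and 63.3 and 43.2 in water, and the stem cell factor Ascl2 at 1.44 and 0, 12.7 and 2.88 and 49 and 59.1 in those groups. Both were close to 0 in DSS plus montmorillonite. In DSS both lay below water, and Ascl2 in DSS replicate 1 was above the other treated libraries. In DSS plus montmorillonite against water the median log2 fold change of the 10 markers was -1.58. Of these, 6 were lower without overlap, against 19.2% of all genes, and 0 higher, against 21.5%. In DSS against water 7 of the 10 markers were lower without overlap, against 28.5% of all genes, and 2 higher, Smoc2 and Olfm4, against 33.9%. Smoc2 had 84.9 and 343 in DSS plus montmorillonite, 315 and 608 in DSS and 199.6 and 227 in water. The 10 B cell and germinal centre markers, none at 0 in any library, summed to 421 and 1773 in DSS plus montmorillonite, 4360.4 and 2576 in DSS and 468 and 598 in water. Of these, 9 of 10 were higher in DSS than in water without overlap, against 33.9% of all genes. In DSS plus montmorillonite 7 of 10 were lower than in DSS without overlap, against 20.6%.

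Squamous markers split the replicates instead of the groups. Krt5, a basal keratin, had 36 and 2469 in DSS plus montmorillonite, 7.37 and 12952 in DSS and 0 and 47.8 in water. Of 7 squamous markers 2 were at 0 in replicate 1 and none in replicate 2 of DSS plus montmorillonite, 1 and none in DSS, and 5 and none in water. The replicate numbered 2 had the larger value for 38 of 43 replication genes in DSS plus montmorillonite, for 12 in DSS and for 36 in water. Squamous RNA was thus high in DSS replicate 2, where most replication genes were below replicate 1, and higher in replicate 2 of the other groups, where most were above. Neutrophil markers, 9 tested, were higher than in water without overlap in 9 of 9 for DSS, against 33.9% of all genes. For DSS plus montmorillonite 8 of 9 were, against 21.5% of all genes. T cell markers, 6 in all, and plasma cell markers, also 6, had per-library medians in DSS plus montmorillonite of -0.91 and 0.33 and of 0.02 and 1.10. Both were lower in replicate 1, as for the replication genes. The same order held for markers of B cells, macrophages, neutrophils, fibroblasts, endothelium, enteric neurons and glia, erythroid cells and squamous epithelium. It was reversed for general epithelium (0.14 and -0.81), colonocytes, goblet cells, crypt cells and smooth muscle (0.55 and -1.26).

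**Figure D4:**
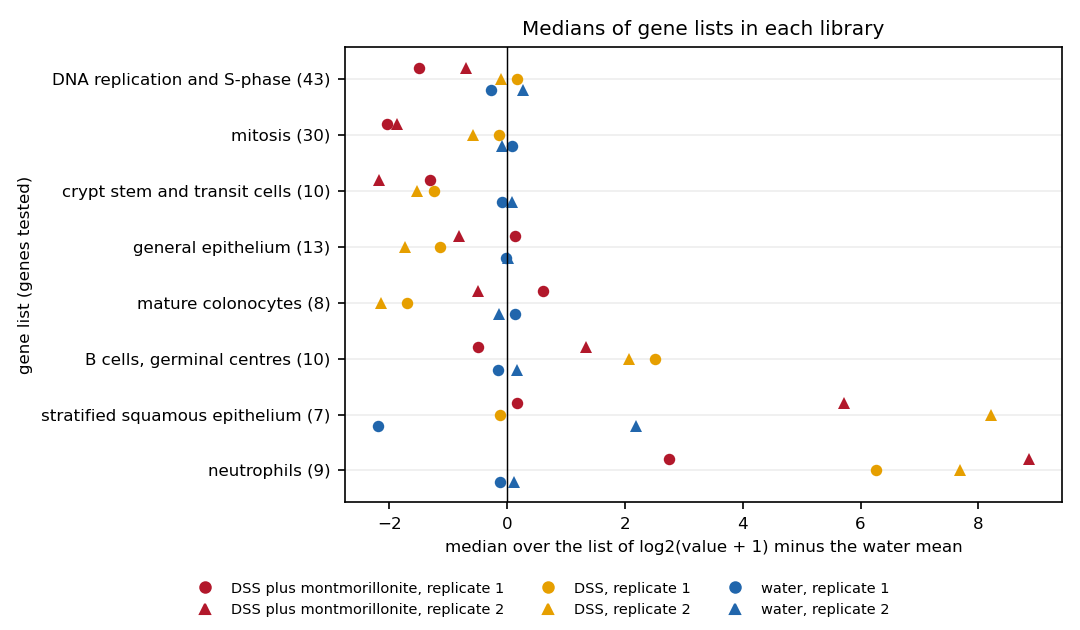
Median over each gene list of log2(value + 1) minus the water mean (horizontal axis), with 1 point per library (red, DSS plus montmorillonite; orange, DSS; blue, water; circles, replicate 1; triangles, replicate 2). Replication genes lie at -1.50 and -0.70 in DSS plus montmorillonite and at 0.16 and -0.11 in DSS, while epithelial markers are lowest in DSS and squamous and neutrophil markers spread widely between replicates.

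Since epithelial RNA differed between groups, the values were also scaled to the epithelial markers. Over all genes that scaling put the median log2 fold change at 0.28 in DSS plus montmorillonite against water, 1.54 in DSS against water and -1.29 in DSS plus montmorillonite against DSS. The members' medians were then -0.98, 1.57 and -2.47. A scaling of this kind applies 1 factor to every gene of a library, so by construction it leaves the members' distance from the median of all genes nearly as it was and is no check on it. In DSS against water limma then called 15 members higher, against 10507 of 20532 genes.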

How the data were processed

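RNA-seq of distal colon was analysed in 6 libraries, 2 per group, with groups and replicate numbers taken from the sample titles. The deposited table, of 20533 genes, holds a signal value for each gene in each library. Reads were mapped to mm10 (GRCm38), per the submitters' processing notes; its aligner, counter and normalisation tool are not stated. Division by each library's smallest non-zero value gave whole reads for 100% of values (tolerance 0.01 read), so the authors' signal is reads over a library factor. The lowest total of a gene over the 6 libraries was 10 reads. Symbols and positions came from GENCODE M21 (20500 of the identifiers matched), and promoter windows from RefSeq (GRCm38.p6).

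The plan named limma as the test, with an edgeR count test instead if the deposited values were raw counts. As the deposited signal is normalised, the main test was limma 3.58.1 (R 4.3.3) with an intensity trend on log2(value + 1), a pseudocount of 1, over 20307 genes (226 with a mean under 1 were removed). All 3 groups shared 1 fit, so its standard errors and p-values pool the spread of groups that may differ in it. The alternative fit with weights per group, lower where libraries spread more, gave 0.485 for DSS plus montmorillonite, 1.23 for DSS and 1.68 for water. The residual degrees of freedom were 3 and the prior ones 3.52. Tests were two-sided with Benjamini-Hochberg adjustment over all genes. Fold changes on this scale understate those of low genes. The recovered reads were also tested with edgeR 4.0.16 (quasi-likelihood) and DESeq2 1.42.0, among 19 alternative settings. The scripts were tested on simulated data.

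The members and all lists, including 75 further genes of the pathway, 30 mitosis genes and 15 lists of cell type markers, were chosen with earlier results of these data known. All 43 members may be named. A rule picked, per role, the members with the smallest and largest p in DSS plus montmorillonite against water and the smallest p in DSS against water. It picked genes of the other lists likewise. Not every gene so picked is shown. Of the mitosis genes only Ube2c is, and of 19 further genes of origin firing, forks and checkpoint none is. The statistics of Pcna, Rfc4 and Rrm1 were outside the rule and were added after their values were seen. So were the values of further members, of Gse1 and of the repair and p53 genes, and the choice of the 12 members plotted.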

Additional observations from a re-analysis of the deposited data

How the results depend on the processing

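Of 19 alternative settings, some left a group with a single library, and calls from leaving out libraries are not counted here. In DSS plus montmorillonite against water the other settings called 0 members, except DESeq2, which called 12 lower. Leaving out each library in turn gave medians of -1.50 to -0.70, with -0.70 without DSS plus montmorillonite replicate 1. In DSS against water scaling by general epithelial genes called 15 members, all higher, with a median of 1.57, where all genes stood at 1.54. Leaving out libraries gave medians of -0.19 to 0.36. In DSS plus montmorillonite against DSS the calls were 11 lower in DESeq2 and 16 lower without DSS plus montmorillonite replicate 2, leaving out libraries gave 0 to 16 calls and medians of -1.58 to -0.93, and the median was -2.47 with epithelial scaling. The limma fit of only the 4 libraries compared had 20 members lower at an unadjusted p below 0.05 in DSS plus montmorillonite against water. Of all 20307 genes 809 were lower at that p. In DSS plus montmorillonite against DSS it had 22 members lower, against 649 of all genes. Why DESeq2 called more than limma and edgeR was not tested. Over all genes, edgeR called 0 in each comparison, while DESeq2 called 341, 2351 and 640 in DSS plus montmorillonite against water, DSS against water and DSS plus montmorillonite against DSS, and limma with weights per group called 3283 in DSS against water. Of 817 log2 fold changes of members per comparison, 44, 63 and 97 moved by more than the spread between replicates and 5, 72 and 4 changed sign, in the same order of comparisons.

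With the replicate number as a block, 0 members were called in each comparison, and 678 of all genes in DSS against water. Deviations of same-numbered libraries correlated at 0.16 (DSS plus montmorillonite and water), 0.20 (DSS and water) and 0.41 (DSS plus montmorillonite and DSS) over 13914 genes; with 2 numbers, and no label tying a number to a litter or day, the pairing was not taken as given, and whether same-numbered libraries share more than the number was not settled.

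The limits are 2 libraries per group, uneven replicates of DSS plus montmorillonite, and depth: the deepest library held 5.74 times the reads of the shallowest, and Fen1, Gins1, Gins3, Chaf1a, Pole and Rfc4 had 10 reads or fewer in a DSS plus montmorillonite library. Thinning all libraries to the shallowest left 24 members lower at an unadjusted p below 0.05 in DSS plus montmorillonite against water, with a median of -1.25.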

Other observations

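In the median, genes that mend broken or stalled forks had low values in the same libraries as the replication genes. A list of 16 genes of homologous recombination and crosslink repair was written with the results for replication genes known. In DSS plus montmorillonite against water 16 of 16 had a negative log2 fold change, against 46.2% of all genes, with a median of -1.37. At an unadjusted p below 0.05 in limma 8 were lower, against 4.77% of all genes. The median relative to water was -1.54 and -1.19 in the DSS plus montmorillonite libraries and 0.11 and -0.29 in the DSS libraries. Brca1, a factor of homologous recombination, had 15.8 and 38.2 in DSS plus montmorillonite, 97.8 and 70.9 in DSS and 72 and 84.1 in water. Both DSS plus montmorillonite libraries were below the other 4. Xrcc3 of the same list was nearly level, with 190 and 173 in DSS plus montmorillonite, 134 and 217 in DSS and 153 and 241 in water. Its log2 fold change against water was -0.08.

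Of 10 genes of mismatch and excision repair, which also act outside S phase, 10 had a negative log2 fold change in the same comparison. Their median was -0.44, and 46.2% of all genes were negative. Exo1, an exonuclease, had 2.88 and 12.7 in DSS plus montmorillonite, 43.6 and 49.4 in DSS and 24 and 47.8 in water, while Polb, the repair polymerase beta, had 188 and 129, 214 and 173 and 157 and 157 in those groups. Of 10 p53 target genes 4 were negative, close to the share of all genes, 46.2%, with a median of 0.23. At an unadjusted p below 0.05 in limma 1 was higher, against 5.37% of all genes, and 0 lower, against 4.77%. It was Trp53inp1, with 1877 and 2978 in DSS plus montmorillonite, 2450 and 1898 in DSS and 1275 and 957 in water. In DSS against water the median of the list was 0.49. At that p 2 of its genes were higher, against 12.5% of all genes, and 0 lower, against 10.5%. Mdm2, the inhibitor of p53, had 473 and 592 in DSS plus montmorillonite, 511 and 537 in DSS and 486 and 396 in water, and the groups overlapped or lay close together. These lists were tested with the fit described for the members, in which no gene passed the adjusted threshold.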
